A study of Mus musculus with 112 samples.

Results

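After 4 h of auxin, 5404 of the 16216 peaks of RNA polymerase II phosphorylated at serine 5 of its C-terminal repeat (Ser5P) in mouse embryonic stem cells had no overlapping peak in the list of untreated cells. These peaks were chosen by one rule, which is that not 1 base of the peak lay under any of the 14809 Ser5P peaks at 0 h. They are called 4 h-only peaks here, and the other 10812 peaks of the 4 h list are called kept peaks. The members were thus selected on the 2 Ser5P lists. Their number, score, width and distance from 0 h Ser5P peaks are therefore given as descriptions, with no test. The lists of polymerase phosphorylated at serine 2 (Ser2P) had no part in the choice.

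The study disabled U1 snRNP in mouse embryonic stem cells and followed RNA and polymerase II on chromatin. The cells used here were 46C cells of strain 129/Ola, grown in serum with leukemia inhibitory factor, and all groups carried SNRNP70 joined to an auxin-inducible degron (AID). Auxin (IAA) triggers degradation of a protein that carries this tag. Groups were untreated cells (0 h) and cells given 500 µM IAA for 4 h, with 1 chromatin immunoprecipitation (ChIP-seq) library per antibody and time. The untreated cells carried the same tagged protein, and no list came from untagged cells. Loss of the SNRNP70 protein cannot be read from these lists and was not checked here.

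U1 snRNP is the particle that recognises 5′ splice sites, and it also keeps nascent transcripts from being cleaved and polyadenylated too early. SNRNP70, or U1-70K, is one of its own proteins. The C-terminal repeat of polymerase II is phosphorylated at serine 5 by the CDK7 kinase of TFIIH around initiation, so Ser5P is usually found at promoters, at paused polymerase and at active enhancers. Serine 2 is phosphorylated by CDK9 and CDK12 as elongation proceeds, and Ser2P usually accumulates through gene bodies toward their ends.

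The 4 lists held 44030 peaks in all. The Ser5P list had 14809 peaks over 24.87 Mb at 0 h and 16216 peaks over 29.74 Mb at 4 h. The Ser2P list had 5915 peaks over 8.801 Mb at 0 h and 7090 peaks over 12.41 Mb at 4 h. All 4 lists rest on a single library each, and a difference between times cannot be told apart from a difference between libraries. The sources used here give neither the read depth nor the control libraries of the peak calls, so a missing peak means only that none was listed. Intervals below are exact 95% intervals for counting error only, and peaks of 1 library are not replicates. Whole-cell RNA of the same line listed all 8 of the stem cell lncRNAs looked up. Lncenc1, a lncRNA of naive stem cells, stood at 109.6, 116.7 and 121.7 FPKM in the 3 libraries at 0 h and at 111.1, 110.1 and 112.2 FPKM in the 3 at 4 h. Platr4 was lower at 4 h, at 13.15, 13.77 and 13.18 FPKM and then 5.2, 5.17 and 4.04 FPKM. The ranges of Platr6 (1.33 to 1.94 and 0.65 to 1.1 FPKM), Platr7 (3.45 to 5.16 and 2.5 to 3.09 FPKM), Platr3 (13.51 to 19.76 and 7.6 to 12.64 FPKM) and Platr14 (33.55 to 34.86 and 29.3 to 33.4 FPKM) were lower at 4 h as well. Those of Platr10 (45 to 51.78 and 49.14 to 51.53 FPKM) and Platr27 (4.62 to 6.5 and 4.44 to 6.63 FPKM) overlapped between times. The share of all lncRNAs whose ranges were apart was not computed here. Summed over the 8, levels ran from 235 to 246.4 FPKM at 0 h and from 212.1 to 223.1 FPKM at 4 h. Of 6 lncRNAs of differentiated cells, 4 were listed. Their sums ran from 13.8 to 16.05 FPKM at 0 h and from 24.09 to 25.91 FPKM at 4 h, mostly Mir124a-1hg (10.54 to 12.46 and 22.28 to 23.92 FPKM), the host of a neuronal microRNA. Sox2ot was lower at 4 h (2 to 2.87 and 0.81 to 0.97 FPKM), and the ranges of Miat and Hotairm1 overlapped between times. The part of these differences in the peak lists was not tested.

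The 4 h-only peaks were 33.3% of the 4 h Ser5P list (interval 32.6 to 34.06%). In the other direction, 3591 of 14809 peaks at 0 h, or 24.25%, had no overlapping peak at 4 h, and these are called 0 h-only peaks. The 4 h-only peaks covered 6.238 Mb, which was 20.97% of the bases of the 4 h list. They were spread over the genome. On autosomes their share of the 4 h peaks ran from 28.94% on chromosome 19 to 36.55% on chromosome 16. The X chromosome lay within this range, at 190 of 544 peaks or 34.93%.

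The 4 h-only peaks were narrow and low scoring. Their median width was 1034.5 bp, with 80% of them between 725 and 1724.7 bp, while kept peaks had a median of 1573 bp. The score is the authors' own value for each peak, with 50 as the lowest in the list, and what it measures was not stated with the lists. The median score of 4 h-only peaks was 70.59, with the 90th percentile at 138.3 and the highest at 885. Kept peaks had a median of 175.4 and a 90th percentile of 890.2. The 0 h-only peaks were narrow and low scoring within their own list too, with a median width of 910 bp, a median score of 65.17 and a 90th percentile of 120. Scores come from separate lists here and are given side by side only.

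The 4 h list was divided by score into 10 bins of nearly equal size, and the share of 4 h-only peaks was lower in each bin than in the bin below it. In the lowest-scoring bin 1119 peaks or 68.99% were 4 h-only. In the fifth bin the share was 38%, in the eighth 6.535%, and in the highest-scoring bin it was 0.2466%, or 4 of 1622 peaks. The scores are those of the 4 h Ser5P list on which the members were selected, so these shares are a description. Among peaks at or above the median score of the list, 10.73% were 4 h-only.

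**Figure D1:**
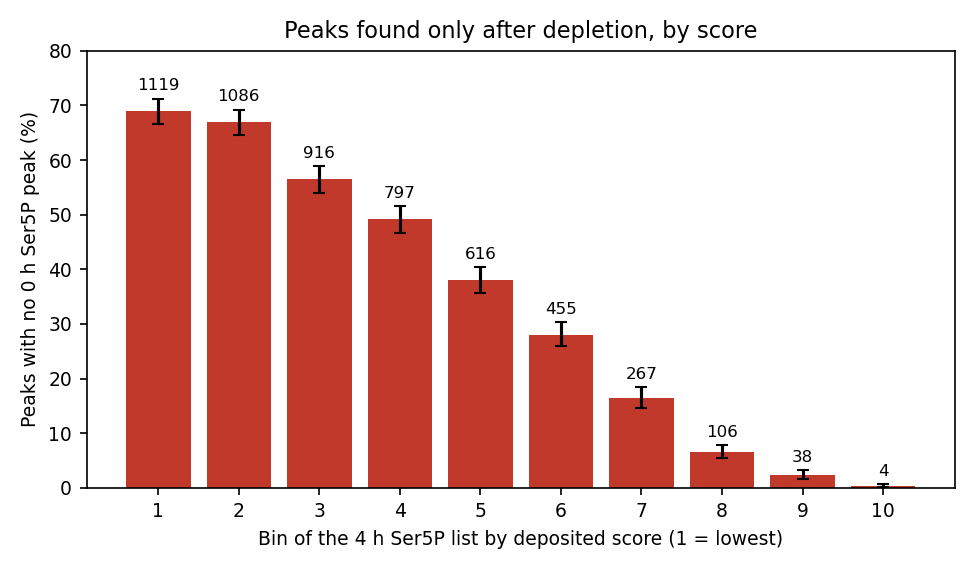
Share of 4 h Ser5P peaks with no overlapping 0 h Ser5P peak (y axis, percent) in 10 bins of the list by the authors' score (x axis, 1 lowest), with exact 95% intervals and the number of 4 h-only peaks above each bar. The share goes from 68.99% in the lowest bin to 0.2466% in the highest.

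The distance of 4 h-only peaks from the nearest 0 h Ser5P peak varied widely. The median gap to the nearest 0 h Ser5P peak was 15.69 kb (interval 14.44 to 17.31 kb), and the middle 50% ran from 3.242 to 83.01 kb. Within 1 kb of a 0 h peak lay 592 of them (10.95%), within 10 kb 2291 (42.39%) and within 100 kb 4199 (77.7%). The other 1205, or 22.3%, were more than 100 kb away, and 85 of these were more than 1000 kb away. For 0 h-only peaks the median gap to the nearest 4 h peak was 7.436 kb, and 57.2% lay within 10 kb. Each of these gaps depends on how densely the other list was called. Within the 4 h list itself, 47.67% of 4 h-only peaks and 49.82% of kept peaks had another Ser5P peak within 10 kb. The 42.39% of 4 h-only peaks within 10 kb of a 0 h peak was thus no higher than these shares. The median gap of 4 h-only peaks was 25799 bp with peaks under 1 kb apart merged, and 9160 bp where only 50% cover counted as shared.

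**Figure D2:**
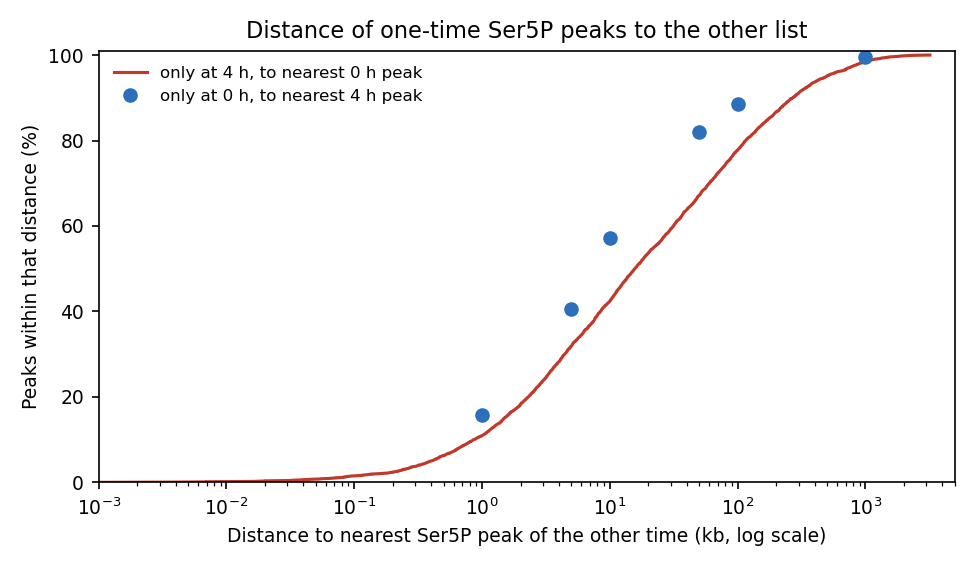
Share of peaks (y axis, percent) within a given distance (x axis, kb, log scale) of the nearest Ser5P peak of the other time, for the 5404 4 h-only peaks (line) and, at 6 distances, the 3591 0 h-only peaks (points). The points lie above the line at each of the 6 distances, for example 57.2% against 42.39% at 10 kb.

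Peaks near and far from 0 h polymerase had similar median scores and widths. Median scores were 69.88 up to 1 kb from a 0 h peak, 70.4 from 1 to 10 kb, 71.62 from 10 to 100 kb and 69.33 beyond 100 kb. Median widths over the same bands were 1035.5, 1076, 1041 and 983 bp. The highest scores in these bands were 474.1, 715.6, 840.6 and 885, each that of 1 peak, in bands of unequal size.

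The rule turns on single bases at its border. There, 41 of the 4 h-only peaks lay within 50 bp of a 0 h peak, with a median score of 67.47 and a median width of 980 bp. Just inside the kept class, 21 peaks overlapped 0 h peaks by at most 50 bp, with a median score of 77.36 and a median width of 1047 bp. In all, 935 kept peaks, these 21 among them, were covered by 0 h peaks over under 50% of their length.

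The 0 h peak nearest to a 4 h-only peak was usually still listed at 4 h. The nearest 0 h Ser5P peak was itself without a 4 h peak for 1082 of the 5404, or 20.02% (interval 18.96 to 21.11%), beside 24.25% of all 0 h peaks. For the 592 within 1 kb, the nearest 0 h peak was lost for 153, or 25.84% (22.36 to 29.57%). For the other 439 the neighbour was still listed at 4 h, so that the new peak lay beside a kept one. Nearby members can have the same nearest 0 h peak, while 24.25% counts each 0 h peak once. The intervals of these shares therefore do not measure a difference from all 0 h peaks.

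The Ser2P lists, which the choice did not use, showed Ser2P at more of the 4 h-only peaks after depletion than before it. At 4 h, 577 of the 5404 (10.68%, interval 9.866 to 11.53%) overlapped a Ser2P peak, beside 15% of all 4 h Ser5P peaks. At the same positions at 0 h, 224 (4.145%, 3.629 to 4.711%) had a Ser2P peak, beside 11.2% of all 4 h Ser5P peaks. The 4 h share was thus 2.576 times the 0 h share. Where Ser2P had to cover at least 50% of the peak the shares were 8.253% at 4 h and 2.702% at 0 h, and where Ser2P within 1 kb also counted they were 14.34% and 6.329%. For kept peaks the shares were 17.18% (1858 peaks) at 4 h and 14.71% (1590) at 0 h, a ratio of 1.169. For 0 h-only peaks they were 16.9% (607) at 4 h and 19.24% (691) at 0 h, a ratio of 0.8784. The Ser2P list itself was larger at 4 h, by 1.199 times in peaks and 1.41 times in bases. The part of this growth in the ratio for 4 h-only peaks was not tested. Their positions were chosen for a Ser5P peak at 4 h and none at 0 h. A difference shared by both 4 h libraries therefore cannot be told apart.

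**Figure D3:**
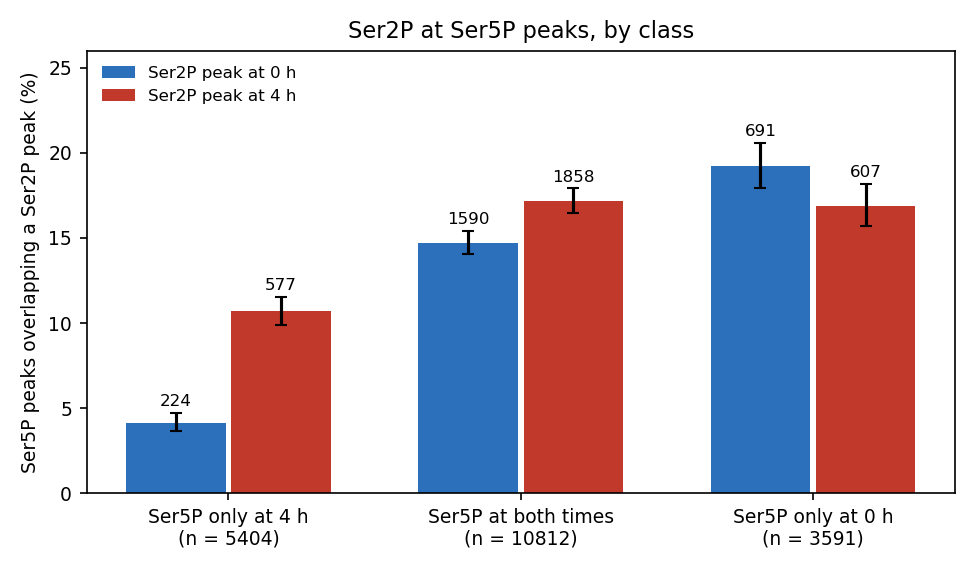
Share of Ser5P peaks that overlap a Ser2P peak by at least 1 base (y axis, percent, from 0) at 0 h and 4 h, for the 3 classes of Ser5P peak, with exact 95% intervals and the number of peaks above each bar. The 4 h-only class goes from 224 to 577 peaks, the kept class from 1590 to 1858, and the 0 h-only class from 691 to 607.

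Position by position, 414 of the 4 h-only peaks (7.661%, interval 6.966 to 8.402%) overlapped Ser2P at 4 h and not at 0 h, beside 6.07% of all 4 h Ser5P peaks. Another 163 had it at both times and 61 at 0 h alone. Of the 577 with Ser2P at 4 h, 71.75% (67.89 to 75.39%) had none at 0 h. The same share among kept peaks was 30.68% (28.59 to 32.83%), or 570 of 1858. Over all 4 h Ser5P peaks it was 40.41%, or 984 of 2435, and among 0 h-only peaks it was 38.22%. Of the 7090 Ser2P peaks at 4 h, 57.3% had no 0 h Ser2P peak.

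The classes also differ in score, so the shares were set side by side within 3 bands of Ser5P score. The highest band has no upper limit. Scores in it reached 885 for 4 h-only peaks and 3206.7 for kept peaks, so they are not alike there. The scores of the Ser2P peaks were not matched. Among peaks scoring 50 to 75, 75% of the 4 h-only peaks with Ser2P at 4 h (222 of 296) had none at 0 h, against 35.59% of the kept peaks (84 of 236). From 75 to 150 the shares were 67.41% and 32.17%, and from 150 up they were 71.93% and 29.37%. In each of the 3 bands this share was higher for the 4 h-only peaks than for the kept peaks. The bands use the 4 h Ser5P score alone. In every band the classes still differ, by the rule, in Ser5P at 0 h, and the part of that in these shares was not tested. The share of 4 h-only peaks that overlapped Ser2P at 4 h was below that of kept peaks in the lowest band, at 9.85% (8.808 to 10.97%) against 14.46% (12.79 to 16.26%). It was also lower in the highest band, at 13.51% (10.39 to 17.14%) against 20.9% (19.89 to 21.95%). In the middle band the shares were 11.33% and 11.23%, with intervals of 9.966 to 12.81% and 10.14 to 12.4%. At 0 h the 4 h-only shares were 3.594%, 4.805% and 4.976% from the lowest band to the highest, against 12.13%, 10.19% and 17.66% of kept peaks.

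Ser2P at 4 h was more frequent on the 4 h-only peaks that lay close to 0 h Ser5P peaks than on those farther away. It overlapped 144 of 592 (24.32%, interval 20.92 to 27.99%) up to 1 kb away and 331 of 1699 (19.48%, 17.62 to 21.45%) from 1 to 10 kb. At 0 h the same positions had 53 (8.953%) and 103 (6.062%). From 10 to 100 kb the shares were 4.822% at 4 h and 2.778% at 0 h. Beyond 100 kb they were 10 of 1205 at 4 h (0.8299%, 0.3987 to 1.521%) and 15 at 0 h (1.245%, 0.6983 to 2.045%). The 4 h share was thus above the 0 h share in the 3 nearer bands, and in the farthest the counts were 10 and 15. Both shares are of the same peaks, so their intervals do not measure a difference between times. The distant peaks, with a median score of 69.33, were thus nearly all without a listed Ser2P peak at either time.

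**Figure D4:**
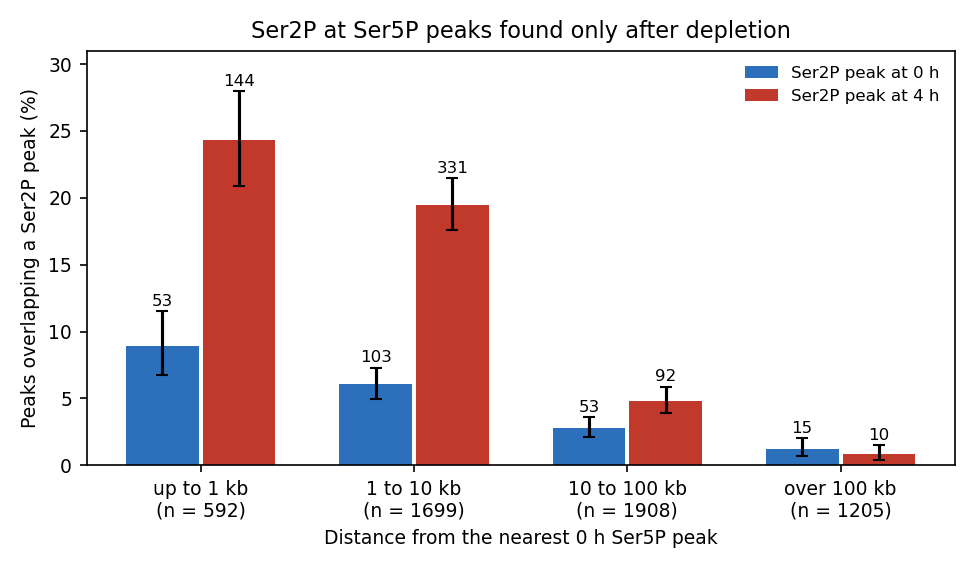
Share of 4 h-only Ser5P peaks that overlap a Ser2P peak at 0 h and at 4 h (y axis, percent, from 0) by distance from the nearest 0 h Ser5P peak (x axis), with exact 95% intervals and counts above the bars. Up to 1 kb the share is 8.953% at 0 h and 24.32% at 4 h, and beyond 100 kb it is 1.245% and 0.8299%.

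The same order held when peaks were sorted by the gap to the next Ser5P peak of the 4 h list, which can be measured in kept peaks too. With a neighbour within 10 kb, 504 of 2576 4 h-only peaks had Ser2P at 4 h (19.57%, interval 18.05 to 21.15%) and 164 at 0 h (6.366%). Kept peaks with such a neighbour stood at 27.73% and 23%. With the next peak over 100 kb away, 6 of 1013 4 h-only peaks had Ser2P at 4 h (0.5923%, 0.2177 to 1.285%) and 13 at 0 h, while kept peaks stood at 3.607% (2.721 to 4.681%) and 3.674%. Isolated peaks of both classes therefore had little Ser2P, and the isolated 4 h-only peaks had less of it at 4 h than the isolated kept ones. The isolated 4 h-only peaks were 18.75% of their class and the isolated kept peaks 13.85% of theirs.

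Those 4 h-only peaks with Ser2P at 4 h had a median gap of 2.903 kb to a 0 h Ser5P peak, and those without it 21.64 kb. Their scores were alike, with medians of 73.68 and 70.36, and so were their widths, at 1125 and 1028 bp. Among those within 10 kb of a 0 h Ser5P peak, that neighbour carried Ser2P at 0 h for 67 of the 356 with a Ser2P peak at 4 h and none at 0 h (18.82%, interval 14.89 to 23.27%). For the 1779 with no Ser2P peak at either time it did so for 204 (11.47%, 10.02 to 13.04%). Nearby members can have the same neighbour, so the intervals of these 2 shares do not measure a difference between the groups.

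Read from the Ser2P side, 4 h-only Ser5P peaks overlapped 572 of the 7090 Ser2P peaks at 4 h, or 8.068%. They overlapped 369 of the 4060 Ser2P peaks without a 0 h counterpart (9.089%) and 203 of the 3030 with one (6.7%). Most new Ser2P peaks thus did not lie on 4 h-only Ser5P peaks.

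Around the midpoints of the 4 h-only peaks, Ser2P at 4 h formed a broad rise and Ser2P at 0 h a small, narrow one. At the midpoint 8.346% of positions were under a 4 h Ser2P peak and 2.905% under a 0 h one. The 4 h share was still 5.126% and 5.218% at 2 kb on the left and right, and 2.961% and 3.257% at 10 kb, where the 0 h share was 1.943% on both sides. The 0 h Ser5P list was empty at the midpoints, as the rule requires, and reached 7.161% and 7.032% at 5 kb on the left and right. At kept peaks the midpoint shares of Ser2P were 11.96% at 4 h and 9.425% at 0 h. Peaks carry no strand, so left and right are directions of the chromosome and not of transcription.

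**Figure D5:**
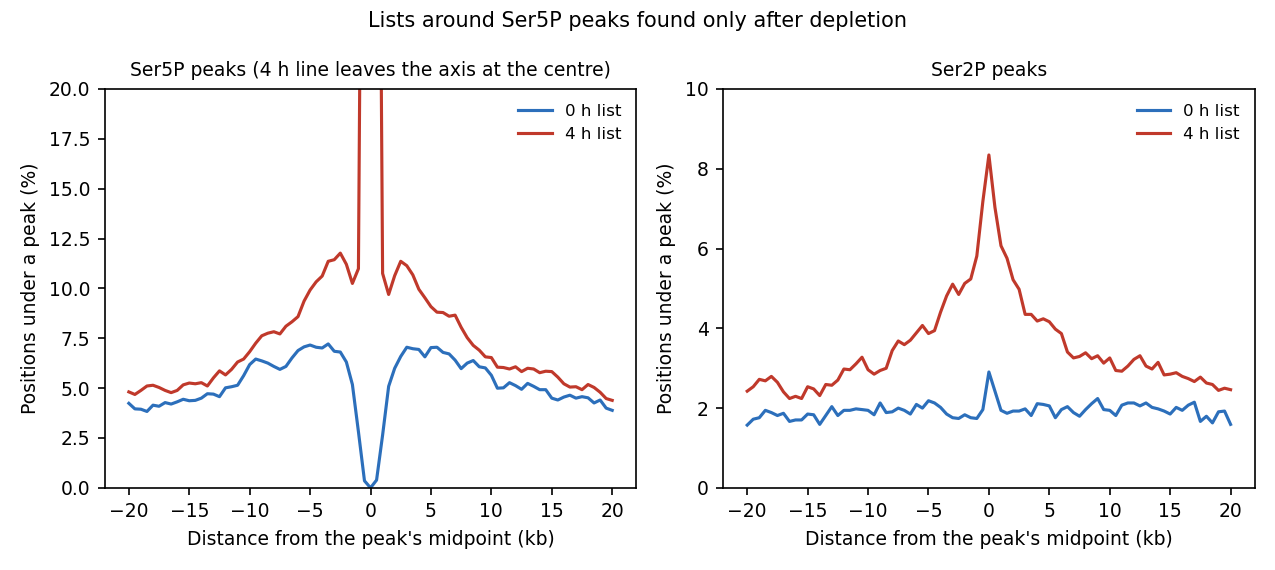
Share of positions (y axis, percent) under a Ser5P peak (left) or Ser2P peak (right) of the 0 h and 4 h lists, by distance from the midpoints of the 5404 4 h-only peaks (x axis, kb, in steps of 0.5 kb to 20 kb on each side). The 4 h Ser5P line passes the top of its axis near the centre, where the members themselves lie, and Ser2P at the midpoint is 8.346% at 4 h and 2.905% at 0 h.

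Most 4 h-only peaks stood apart from each other. With gaps under 10 kb joined into runs, 4013 of the 5404 (74.26%) were alone, 910 formed 455 pairs, and 481 lay in 140 runs of 3 or more. Kept peaks do not count in these runs, and no like figure was computed for kept peaks. With both classes counted, 47.67% of 4 h-only peaks and 49.82% of kept peaks had another 4 h Ser5P peak within 10 kb. Runs of 5 or more numbered 13 and held 71 peaks. The run with the most members was chr7:31344342-31371157 (build mm9), with 7 peaks over 26.82 kb and a best score of 230.7. It also held 2 kept peaks, and 5 of its 7 members overlapped a Ser2P peak at 4 h and 3 of the 7 at 0 h. The run at chr4:149429419-149447261 had 6 members over 17.84 kb, 5 with Ser2P at 4 h and 1 at 0 h. The run at chr2:152048865-152068251 had 6 members over 19.39 kb, 4 with Ser2P at 4 h and 0 at 0 h. Each of these last 2 runs held 1 kept peak.

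Single regions show the range within the class. Positions are those of build mm9, and no gene is given for them because no annotation of that build was used here. The strongest and widest 4 h-only peak was chr8:20011472-20021091, which scored 885 over 9620 bp, 219.3 kb from the nearest 0 h Ser5P peak. A 4 h Ser2P peak of score 989.1 covered almost the same stretch (20011357 to 20020258), and the nearest 0 h Ser2P peak was 145.8 kb away. It was thus one of the 10 members beyond 100 kb with Ser2P at 4 h. A pair of named peaks lay nearby. The peak at chr8:19891185-19894466 scored 592.1, with the next at chr8:19881947-19891115 scoring 142.8 over 9169 bp. Neither overlapped Ser2P at 4 h, the nearest being 97.61 and 88.38 kb away.

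On chromosome 1, chr1:36958014-36963148 scored 840.6 over 5135 bp, 23.11 kb from a 0 h Ser5P peak of score 58.93. It overlapped a 4 h Ser2P peak of score 79.3, where the median of that list was 84.71, and the nearest 0 h Ser2P peak was 7.026 kb away. The peak at chr1:36886890-36889732, on the same stretch of the chromosome, scored 596.2 and had its nearest 4 h Ser2P peak at 23.34 kb. The peak at chr1:168063852-168069564 scored 715.6 over 5713 bp, 2.64 kb from a kept 0 h peak of score 182.7, and the nearest Ser2P peak at 4 h was 205.4 kb away.

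The other 5 of the 10 highest-scoring members had no 4 h Ser2P peak on them. They were chr11:102902758-102907694 (score 644.4), chr2:28920169-28922802 (591.4), chr10:42193074-42196575 (526.8), chr8:28359780-28363065 (504.3) and chr2:72832462-72835885 (490.1). The last 2 lay 6.769 and 12 kb from 0 h Ser5P peaks that scored 1339.2 and 1302.2, while the first 3 lay 12.4, 3.435 and 1.012 kb from 0 h peaks that scored 66.25, 112.5 and 59.53. All of the 10 highest-scoring members had a nearest 0 h peak that was still listed at 4 h, and 2 of the 10 overlapped Ser2P at 4 h.

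High-scoring members with a Ser2P peak at 4 h alone included chr16:21208441-21212263, of score 463.8, with a Ser2P peak of score 351.7 and the nearest 0 h Ser2P peak 484.6 kb away. At chr15:73466613-73470432 a Ser5P peak of score 370.6 lay with a Ser2P peak of score 208.7, 542 kb from the nearest 0 h Ser2P peak. The peak at chr9:65487888-65491178 scored 403.7, with a Ser2P peak of score 70.14. These 3 lay 2.978, 5.526 and 2.757 kb from a 0 h Ser5P peak, within the 10 kb in which Ser2P was most frequent.

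At the other end were small peaks far from 0 h polymerase. The 5 farthest scored from 50.32 to 83.35 and lay 2.35 to 3.196 Mb from a 0 h Ser5P peak, and a 4 h Ser2P peak was listed on none of the 5. They were chr5:13870415-13871403, chr5:14401054-14402016, chr1:148273329-148274552, chr1:148170105-148170736 and a peak on the unplaced Y_random sequence (39712464 to 39713243), whose bases have no order along the chromosome, so that its distance has no physical meaning. Among the widest was also chr12:20317133-20322133, which reached 5001 bp at a score of only 53.61.

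The 5 nearest members lay 1 to 5 bp from a 0 h peak. At chr8:11627180-11628755, chr1:59545614-59546700 and chr5:137410070-137411068 that 0 h peak was not listed at 4 h, with scores of 51.7, 53.76 and 68.16 at 0 h. Side by side, the 4 h-only peaks there scored 100.4, 58.28 and 67.74. At chr5:120038016-120039873 and chr8:128194565-128195468 the 0 h neighbour was kept, and the new peaks scored 163.1 and 62.08. These 5 are at the border that the choice of 1 shared base sets. Starts were read as counting from 0, which the lists do not state. If they count from 1, each gap and each printed start is 1 base smaller, and no peak changes class among the 4 h-only peaks, since the smallest gap as read is 1 bp.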

How the data were processed

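Polymerase II ChIP-seq peaks with a score each were deposited by the authors, 1 list per library (Ser5P and Ser2P, 0 h and 4 h), in build mm9. Peak names in the deposited lists carry the name MACS. The submitters' processing notes name Bowtie2 and bedtools. The sources used here give no settings, depth or controls for the calls. FPKM values of whole-cell RNA (3 libraries per time) were deposited by the authors and served only to look up stem cell markers.

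Lists were read as BED, and overlap meant at least 1 shared base. Gaps are bases between edges. Shares carry exact Clopper-Pearson 95% intervals and medians order-statistic intervals (Python 3.11.15, numpy 2.4.6, pandas 2.3.3, scipy 1.17.1), and the code for overlaps and gaps was checked on simulated intervals. With 1 library per list no statistical test was made. Named regions were the 10 highest-scoring, the 5 widest, farthest and nearest, the 5 highest-scoring with Ser2P at 4 h alone, and the 3 runs with the most members. The members, measures and lists were chosen with earlier results of these data known. Alternatives were a 1 kb gap, 50% cover, a score minimum, merged peaks and other Ser2P overlaps. Gene annotation and sequence of mm9 were not used here.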

Additional observations from a re-analysis of the deposited data

How the results depend on the processing

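Of 40 alternative values, 15 moved by less than the interval of the value reported and 25 by more. The share of 4 h-only peaks was 29.67% with a 0 h peak within 1 kb also counted as shared, 39.09% with sharing only at 50% cover, 10.73% among peaks at or above the median score and 31.81% with peaks under 1 kb apart merged. The median gap became 23026.5 bp (1 kb), 9160 bp (50% cover) and 25799 bp (merged), and the share within 10 kb 35.31%, 50.89% and 33.37%. Median width and score were 1083 bp and 74.63 (50% cover) and 1644.5 bp and 148.2 (score). Ser2P at 4 h was found on 8.998% (1 kb), 12.64% (50% cover), 12.76% (score), 8.441% (merged), 8.253% (Ser2P over at least 50% of the peak) and 14.34% (Ser2P within 1 kb). At 0 h it was found on 3.554%, 5.395%, 5.057%, 2.702% and 6.329% under the same settings other than merging. The 4 h share stayed above the 0 h share in each. The cause of these moves, beyond the change of members that each setting makes, was not tested. The share of 4 h-only peaks changed by over 1.5 times under the score minimum alone. No paired analysis was possible because each list came from 1 library and the result comes from no test.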
